A study of Homo sapiens with 2 samples.

Results

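The integrated stress response was examined through 10 genes that code for its regulators and effectors: the kinases EIF2AK3 and EIF2AK4, the transcription factors ATF4, DDIT3 and CEBPB, and the effectors TRIB3, CHAC1, SESN2, STC2 and EIF4EBP1. They were found by gene name among the 50868 genes of the expression table, and all 10 passed a minimum of 10 reads over both libraries. The list was chosen by role with the counts and FPKM of the contrast below already known, so the values of its genes are a description. The RNA came from Molm13, an established human acute myeloid leukemia (AML) cell line with a KMT2A::MLLT3 fusion. There was 1 library with the genotype Vector (OE-Control), the empty vector, and 1 library with the genotype Over-expression UNC5B, here OE-UNC5B. UNC5B is a netrin receptor, and the comparison served to look for expression changes behind the attachment and growth of the leukemia cells. According to the methods, UNC5B was delivered by a lentivirus with a CMV promoter, a FLAG tag, mCherry and puromycin selection, and both cultures were grown in RPMI-1640 medium with fetal bovine serum.

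The integrated stress response is a pathway by which cells slow protein synthesis under stress. Kinases that sense unfolded protein in the endoplasmic reticulum (EIF2AK3, also PERK), uncharged tRNA (EIF2AK4, also GCN2), heme shortage and mitochondrial stress (EIF2AK1, also HRI) or double-stranded RNA (EIF2AK2, also PKR) phosphorylate the initiation factor eIF2 on its alpha subunit, which blocks its recycling by eIF2B. Most translation then falls, while the ATF4 mRNA, whose upstream reading frames otherwise hold ribosomes back, is translated better. The ATF4 protein pairs with C/EBP proteins and other bZIP factors on C/EBP-ATF response elements and switches on genes for amino acid supply, for feedback and, under lasting stress, for cell death. RNA-seq shows neither the phosphorylation of eIF2 nor the ATF4 protein.

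UNC5B, the targeted gene, was at 0 reads in both Vector and OE-UNC5B, each below a floor of 3 reads, so the overexpression was not visible in the counts. All directions therefore rest on the labels, and the wording "library labelled OE-UNC5B" is used. The libraries held 13715566 reads (Vector) and 15637137 reads (library labelled OE-UNC5B), of which mitochondrial genes took 6.78% and 5.66%. Of 14 myeloid markers, 13 had at least 10 reads over both libraries, and ANPEP was at 2 reads and 0 reads. The summed level of the 14 markers was 1875 FPKM in Vector against 989 FPKM in the library labelled OE-UNC5B, of which LYZ alone gave 1455 and 585 FPKM. FPKM divide the reads of a gene by its length and by the library total. Among these markers LYZ, MPO and CEBPE were lower by at least 2-fold, with log2 fold changes of -1.36, -1.35 and -2.75. The other 10 markers with at least 10 reads did not reach 2-fold and ran from -0.23 for SPI1 to 0.90 for MEIS1. Of all 13 such markers 7 lay above 0, with a median of 0.14. Of the 10 endothelial markers 7 were at 0 in both libraries, and the list held 10 and 7 reads. Of the 10 markers of HEK-293T cells, the line used to package the virus, 8 were at 0 in both, and the list held 11 and 2 reads. Of the 10 fibroblast markers 4 were at 0 in both, and the list held 143 and 19 reads, of which COL3A1 gave 108 and 6. The part of these marker differences in the results below was not tested.

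Log2 fold changes compare the library labelled OE-UNC5B with Vector, after TMM scaling and with 0.5 reads added to each count. Since each group had 1 library, the differences lack a replicate check and no test of the conditions could be made. The 95% intervals are exact Clopper-Pearson intervals of the reads and cover counting error only. A gene was counted as higher or lower when its fold change was at least 2. By this rule 5 of the 10 genes were higher and 0 were lower. Among all 15384 genes with at least 10 reads, 5.15% were higher and 4.79% were lower, 9.94% in all. Nothing is read from the share of the 10, which were chosen with this contrast in view. The 5 higher genes were STC2, CHAC1, SESN2, TRIB3 and CEBPB. These are 4 of the 5 effectors, 1 of 3 transcription factors and 0 of 2 kinases, and nothing is read from this split either. The median log2 fold change of the 10 genes was 1.09, and that of all genes was -0.01. Of the reads of each library, the 10 genes took 11077 in Vector against 24951 in the library labelled OE-UNC5B, which is 808 and 1596 CPM (counts scaled to equal library totals). Most of these reads came from ATF4 (4993 and 10509) and EIF4EBP1 (3471 and 6095), which did not reach 2-fold. By their counting intervals alone, 9 of the 10 lay wholly above a log2 fold change of 0 and 1 wholly below, as did 25.1% and 26.3% of all genes.

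**Figure D1:**
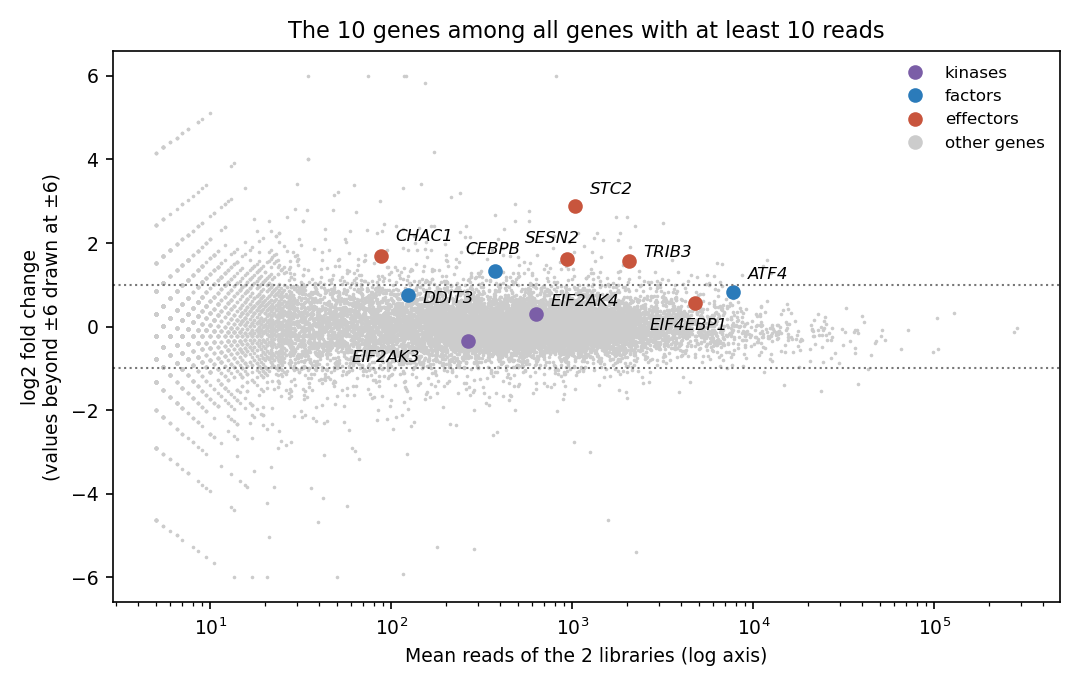
Log2 fold change (library labelled OE-UNC5B over Vector) against the mean reads of both libraries on a log axis, for all genes with at least 10 reads (grey) and the 10 genes (coloured by role); dotted lines mark a 2-fold change. STC2 lies highest at 2.88, 4 further genes lie above the upper line, and EIF2AK3 at -0.35 is the lowest of the 10.

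The kinases were examined first, as the entry of the pathway. EIF2AK3 (ENSG00000172071, chr2:88556741-88627576, minus strand, GRCh38) had 274 reads in Vector against 254 in the library labelled OE-UNC5B, at 2.59 and 2.11 FPKM. Its log2 fold change was -0.35 (95% counting interval -0.60 to -0.09), the only one of the 10 below 0. EIF2AK4 (ENSG00000128829, chr15:39934146-40035591, plus strand) had 511 and 744 reads, at 2.58 and 3.29 FPKM, with a log2 fold change of 0.30 (0.14 to 0.47). The kinase of the endoplasmic reticulum was thus slightly lower and the kinase of amino acid shortage slightly higher, and neither reached 2-fold. The other kinases of the family were no further apart: EIF2AK1 had 2401 and 2420 reads (log2 fold change -0.23) and EIF2AK2 had 553 and 624 reads (-0.06). Per length, EIF2AK1 was the most abundant of the 4 kinases in both libraries, at 20.7 and 18.3 FPKM.

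ATF4 (ENSG00000128272, chr22:39519695-39522685, plus strand), the central transcription factor of the response, had 4993 reads in Vector against 10509 in the library labelled OE-UNC5B. This gave a log2 fold change of 0.84 (0.79 to 0.89), a fold of 1.79, which lies below 2-fold. In FPKM it went from 88.4 to 163, which placed it second of the 10 genes in both libraries. The table also lists 4 pseudogenes of ATF4. They held 90 and 212 reads together, nearly all from ATF4P3 (88 and 208 reads), and such copies can share reads with ATF4. With their reads added to ATF4 the log2 fold change was 0.84.

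DDIT3 (ENSG00000175197, chr12:57516588-57520517, minus strand) codes for CHOP, a C/EBP-like factor that is induced by ATF4 and is known for its role in cell death. It was scarce, with 82 Vector reads against 164 in the library labelled OE-UNC5B, at 0.995 and 1.75 FPKM. Its log2 fold change was 0.76, and the interval of 0.37 to 1.16 holds both a small change and one past 2-fold. In GENCODE 44, 31.6% of its exonic bases lie opposite exons of MARS1 or MBD6, and 8.03% are shared with another gene on its own strand. MARS1, named here only for this overlap, had 2212 and 5184 reads, and since the use of strand is not given in the sources used here, reads of MARS1 within DDIT3 cannot be told apart from its own.

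CEBPB (ENSG00000172216, chr20:50190734-50192689, plus strand), a C/EBP factor that pairs with ATF4 and also drives myeloid differentiation, was the only transcription factor of the 10 past 2-fold. It had 187 reads in Vector against 557 in the library labelled OE-UNC5B, with a log2 fold change of 1.34 (1.10 to 1.58). The antisense gene CEBPB-AS1, which covers 12.6% of its exonic bases, had 3 and 12 reads. The other 8 genes had no such overlap, except EIF2AK3, where 3.77% of the exonic bases lie opposite a gene with 0 reads in both libraries.

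Among the effectors, STC2 (ENSG00000113739, chr5:173314713-173329503, minus strand) had the largest fold change of the 10 genes. It codes for stanniocalcin-2, a secreted glycoprotein. It had 213 reads in Vector against 1852 in the library labelled OE-UNC5B, a fold of 7.36 (6.40 to 8.54), and stood at rank 57 of all 15384 genes by log2 fold change. Its FPKM went from 2.19 to 16.7, from the eighth to the sixth place among the 10.

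TRIB3 (ENSG00000101255, chr20:362835-397559, plus strand) codes for a pseudokinase that binds ATF4 and CHOP and feeds back on their activity. It had 906 and 3186 reads, with a log2 fold change of 1.58 (1.47 to 1.69). SESN2 (ENSG00000130766, chr1:28259527-28282491, plus strand) codes for sestrin 2, which senses leucine and holds back mTORC1. It had 404 and 1451 reads, with a log2 fold change of 1.61 (1.45 to 1.77). Both genes thus differed by a similar amount, at folds of 2.98 and 3.04 with overlapping intervals.

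CHAC1 (ENSG00000128965, chr15:40952962-40956519, plus strand) codes for an enzyme that breaks down glutathione, and it is a known target of the ATF4 and CHOP branch. It was the least abundant of the 10 in both libraries, at 0.460 and 1.56 FPKM. Its 36 and 139 reads gave a log2 fold change of 1.70 with a wide interval of 1.17 to 2.28. With the deposited FPKM and 1 FPKM added in place of reads, it was 0.81, below 2-fold.

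EIF4EBP1 (ENSG00000187840, chr8:38030341-38060365, plus strand) codes for a repressor that binds the cap-binding protein eIF4E and is released from it by mTORC1. It was the most abundant of the 10 genes per length, at 236 FPKM in Vector against 363 FPKM in the library labelled OE-UNC5B. It had 3471 and 6095 reads and a log2 fold change of 0.58 (0.51 to 0.64), so it was the only effector that stayed below 2-fold.

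**Figure D2:**
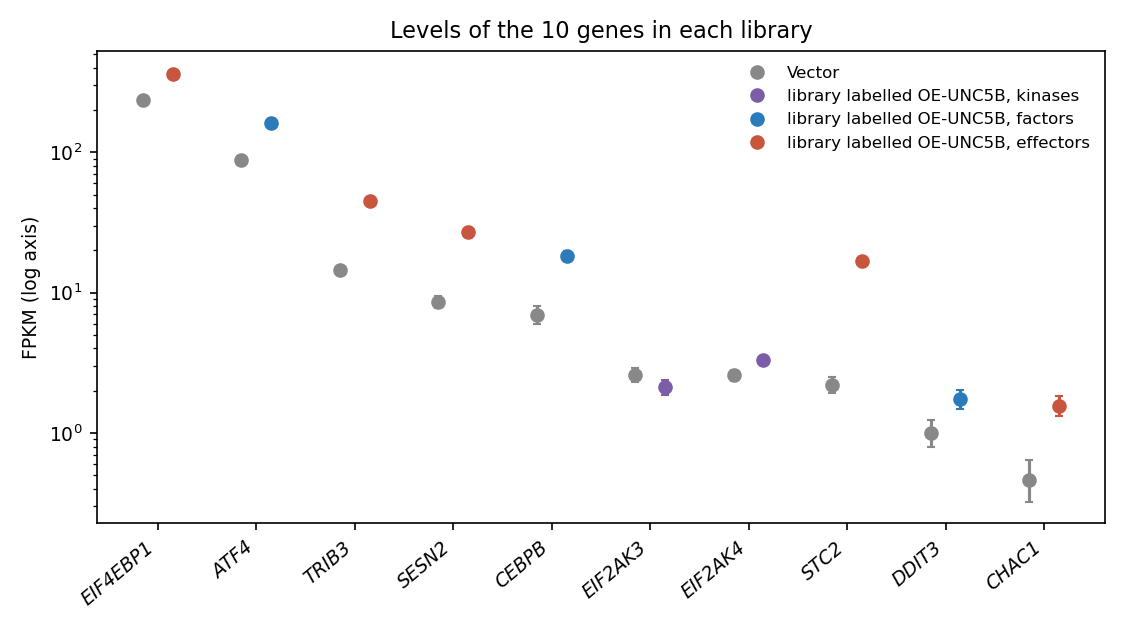
FPKM of each gene on a log axis, for Vector (grey) and the library labelled OE-UNC5B (coloured by role); bars are 95% Poisson intervals of the reads. EIF2AK3 is the only gene whose value is lower in the library labelled OE-UNC5B, and STC2 moves farthest, from 2.19 to 16.7 FPKM.

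The order of the FPKM levels was much the same in both libraries. In Vector it ran from EIF4EBP1 over ATF4, TRIB3, SESN2, CEBPB, EIF2AK3, EIF2AK4, STC2 and DDIT3 to CHAC1. By the 95% Poisson intervals of the reads, SESN2 and CEBPB could not be separated, nor could EIF2AK3 and EIF2AK4, nor EIF2AK4 and STC2. In the library labelled OE-UNC5B, STC2 stood above both kinases, and EIF2AK4 stood above EIF2AK3. There CEBPB and STC2 overlapped in their intervals, as did EIF2AK3 and DDIT3, and DDIT3 and CHAC1. With 1 library per group these intervals leave out variation between cultures.

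Relatives of the 10 genes, which share their protein family but mostly not their place in the response, were listed as a comparison. Of 20 paralogs, 18 had at least 10 reads, and their median log2 fold change was -0.05. Of the 18, 0 were higher and 1 was lower by at least 2-fold (5.56%, near the 4.79% of all genes). TRIB1 had 990 reads in Vector against 764 in the library labelled OE-UNC5B, a log2 fold change of -0.61 (-0.75 to -0.47), while TRIB3 was higher. TRIB2 had 7 and 0 reads, under the minimum. CHAC2, which has the same enzyme activity as CHAC1, had 238 and 248 reads, a log2 fold change of -0.18. In Vector CHAC2 was the more abundant of the pair, at 13.1 FPKM against 0.460 FPKM for CHAC1.

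The sestrins SESN1 and SESN3 had log2 fold changes of 0.09 and -0.42, and SESN1 is known as a target of p53. For the eIF4E-binding proteins EIF4EBP2 and EIF4EBP3 the values were -0.03 and 0.18. STC1, the other stanniocalcin, had 3 and 1 reads, at or under the floor in both libraries, so no fold is given. Among the TRIB, CHAC, SESN and EIF4EBP genes with at least 10 reads, the one among the 10 genes had the highest log2 fold change of its family. The 10 were chosen with these values known, so this is a description.

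Among the ATF factors other than ATF4, log2 fold changes ran from -0.31 for ATF5 to 0.39 for ATF3. ATF3, an early stress factor, had 49 and 76 reads, and its interval of -0.14 to 0.94 includes 0. ATF5, whose mRNA is under the same kind of translational control as ATF4, had 613 and 582 reads. ATF1, ATF2, ATF6 and ATF7 had log2 fold changes of 0.15, 0.07, 0.21 and 0.15. The C/EBP factors differed more among themselves. CEBPG, a dimer partner of ATF4, had 1977 and 4199 reads and a log2 fold change of 0.85 (0.77 to 0.93), close to the 0.84 of ATF4. CEBPA, the main C/EBP factor of myeloid progenitors, had 7227 and 7626 reads (-0.16), and CEBPD had 1195 and 1077 reads (-0.39). CEBPE, a factor of granulocyte maturation, had 48 and 8 reads, a log2 fold change of -2.75 (-4.11 to -1.73), and was the 1 lower paralog.

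**Figure D3:**
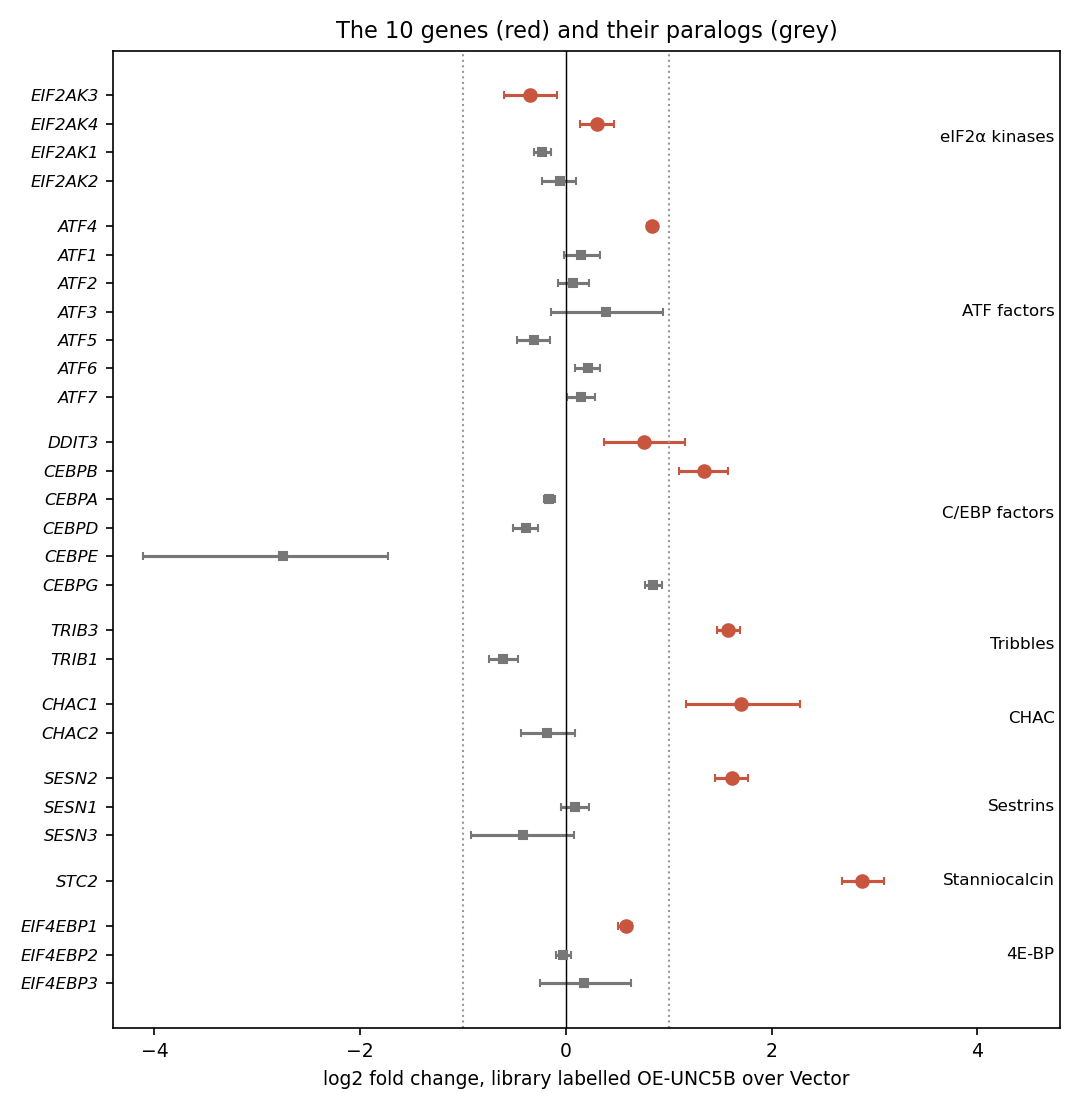
Log2 fold changes (library labelled OE-UNC5B over Vector) of the 10 genes (red circles) and the paralogs with at least 10 reads (grey squares) by family; bars are 95% intervals from the reads and dotted lines mark 2-fold. TRIB3 at 1.58 stands to the right of TRIB1 at -0.61, and CHAC1 at 1.70 to the right of CHAC2 at -0.18.

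The parts of the pathway that carry the signal were compared next. The machinery around eIF2 was listed as 22 genes for sensing, for eIF2 and eIF2B and for the eIF2 phosphatase, all with at least 10 reads. Of these, 1 was higher and 0 were lower by at least 2-fold, and the median log2 fold change was -0.04. The share of higher genes, 4.55%, was near the 5.15% of all genes. The higher gene was OMA1, the mitochondrial protease that cleaves DELE1 to pass mitochondrial stress to EIF2AK1. It had 74 and 180 reads, a log2 fold change of 1.04 (0.65 to 1.46). With the deposited FPKM and 1 FPKM added in place of reads, OMA1 was below 2-fold. The list of eIF2, eIF2B and eIF5 genes had a range of -0.36 to 0.41, and 7 of its 9 genes lay below 0. In the phosphatase list, which includes the feedback subunit PPP1R15A (GADD34), values ran from -0.19 to 0.38.

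Of 11 bZIP factors that can pair with ATF4 or C/EBP proteins, 1 was higher and 0 were lower, with a median log2 fold change of -0.08. The higher gene was JDP2, a repressor of AP-1 and ATF activity. It had 139 and 584 reads, a log2 fold change of 1.83 (1.56 to 2.11). FOS, chosen after its values were seen, was the lowest of the list, with 2692 and 1781 reads and a log2 fold change of -0.83.

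Known targets of ATF4 and CHOP outside the 10 genes were split into stress targets and amino acid targets. Of 26 stress targets, 25 had at least 10 reads, and 8 were higher and 2 were lower by at least 2-fold, with a median log2 fold change of 0.46. INHBE, a beta subunit of the activins, had 16 and 156 reads, a log2 fold change of 3.01 (2.30 to 3.89). ADM2, which codes for the peptide adrenomedullin 2, had 88 and 662 reads, a log2 fold change of 2.67. DDIT4, which codes for the mTORC1 inhibitor REDD1, had 481 and 3507 reads, a log2 fold change of 2.63. VEGFA, the vascular growth factor, had 844 and 5503 reads, a log2 fold change of 2.47. All 4 had larger folds than TRIB3, SESN2 and CHAC1.

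BCL2L11, which codes for the BH3-only protein BIM, had 95 and 389 reads, a log2 fold change of 1.79. PMAIP1, which codes for the BH3-only protein NOXA and was chosen after its values were seen, had 1449 and 604 reads, a log2 fold change of -1.50 (-1.64 to -1.36). The death genes BBC3 (PUMA) and TNFRSF10B (DR5), also chosen after their values were seen, did not reach 2-fold, at 0.53 (0.32 to 0.74) and 0.46 (0.38 to 0.54). GDF15, the other lower gene, also chosen after its values were seen, had 10 reads in Vector against 2 in the library labelled OE-UNC5B, a ratio of 0.202 with a counting interval of 0.0181 to 0.796. FGF21, the stress target below 10 reads, had 0 reads in both.

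Of 34 amino acid targets, 18 were higher and 0 were lower, and 32 of the 34 lay above 0, with a median log2 fold change of 1.01. CTH, the last enzyme of transsulfuration, had 148 and 1005 reads, a log2 fold change of 2.52. SLC6A9, a glycine transporter, SLC7A11, the cystine transporter, and ASNS, asparagine synthetase, had log2 fold changes of 2.35, 2.17 and 1.91. MTHFD2, a mitochondrial folate enzyme, had a value of 1.51. CBS had a value of 1.89 over 43 and 189 reads, but it has a near-identical copy in GRCh38, and its value is uncertain. The 10 genes had a median of 1.09, close to that of the amino acid targets, while the stress targets held both the highest value of the lists, that of INHBE, and the lower genes. These lists were also drawn up with earlier results known.

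The other arms of the unfolded protein response, which answer to ATF6 and XBP1 and share the endoplasmic reticulum stress signal with EIF2AK3, were listed next. Of 18 genes, 0 were higher and 4 were lower by at least 2-fold, and the median log2 fold change was -0.30. The lower genes were MANF (887 and 368 reads, -1.51), CRELD2 (403 and 167 reads, -1.51), CALR (20310 and 9084 reads, -1.40) and SDF2L1 (480 and 251 reads, -1.17), all secretory pathway proteins or chaperones. HSPA5, which codes for the chaperone BiP and was chosen after its values were seen, had 9319 and 5848 reads, a log2 fold change of -0.91 (-0.96 to -0.86). XBP1 itself, also chosen after its values were seen, had 3435 and 4802 reads, a log2 fold change of 0.25, which does not show its splicing. The medians of the ATF4 and CHOP target lists lay above 0 and that of the ATF6 and XBP1 arms below 0, with all genes at -0.01. This is a description, since the lists were drawn up with earlier results known. HERPUD1 stands both in the stress targets and in these arms.

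The partners of SESN2 and EIF4EBP1 were listed as well, since both act on the mTORC1 branch. Of 10 genes for mTORC1, for GATOR2 (the complex that SESN2 binds) and for the cap-binding complex eIF4F, 0 were higher and 0 were lower, with a median log2 fold change of -0.12. EIF4E, the target of EIF4EBP1 and chosen for that after its values were seen, had 643 and 660 reads, a log2 fold change of -0.20 (-0.36 to -0.04).

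**Figure D4:**
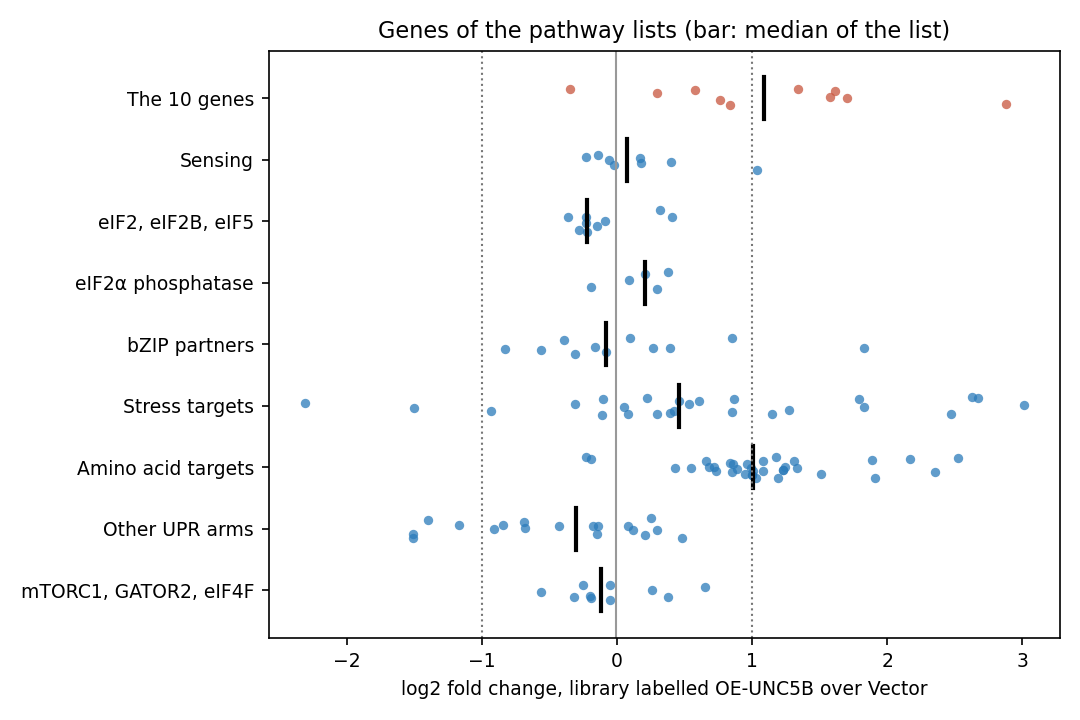
Log2 fold changes (library labelled OE-UNC5B over Vector) of the 10 genes (red) and of each pathway list (blue), with 1 point per gene with at least 10 reads, a black bar at the median, a grey line at the median of all genes and dotted lines at 2-fold. The amino acid targets centre on 1.01, the other arms of the unfolded protein response (UPR) on -0.30.

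The sequences before the start sites were examined for the C/EBP-ATF response element, because 5 of the 10 genes differed by at least 2-fold in the same direction. The core searched was TGATGNAA on both strands, where N is any base. RefSeq promoter windows of GRCh38.p14 were found for 9 of the 10 genes, and EIF4EBP1 had no entry. Within the windows, which reach from 250 bases before the start to 50 bases after it, only CHAC1 held the core. The same windows held it for 2.69% of the 10009 expressed genes with a window, and 0 of the 9 genes held the cyclic AMP response element TGACGTCA, which 3.82% of the expressed genes held. After these values were seen, the search was extended to the 1000 bases before each start in hg38. There 6 of the 9 genes held the core, namely DDIT3, TRIB3, CHAC1, SESN2, STC2 and EIF2AK3, against 12.3% of the expressed genes. The 10 genes were chosen for their role in a response that acts on this element. Their share is therefore not independent of that choice. The matches are shown as 30 bases in the sense of the gene, with the core in capitals, since they are the feature shared by all 4 effectors with a window.
DDIT3, chr12:57520802-57520831, minus strand: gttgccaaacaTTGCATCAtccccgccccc
CHAC1, chr15:40953251-40953280, plus strand: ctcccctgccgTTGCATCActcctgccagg
TRIB3, chr20:380947-380976, plus strand: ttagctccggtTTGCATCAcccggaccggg
STC2, chr5:173329148-173329177, minus strand: cctcctggaaaTGATGCAAgtcctgactgt
SESN2, chr1:28259211-28259240, plus strand: gtgaagtccctTTTCATCAcgcaaccctaa
EIF2AK3, chr2:88628306-88628335, minus strand: cccttttgcaaTTTCATCActgtctttggt

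The cores of DDIT3, CHAC1 and TRIB3 had the same 8 bases, TTGCATCA, and STC2 had the complement of these on the other strand, TGATGCAA. The cores of SESN2 and EIF2AK3 had TTTCATCA, which differs at the free base. TRIB3 held the core 3 times, 403, 370 and 337 bases before the start, with the same 30 bases around each. The core lay 306 bases before the start of DDIT3, 209 bases before that of CHAC1, 296 bases before that of SESN2, 752 bases before that of STC2 and 860 bases before that of EIF2AK3. In GENCODE 44 the sites of CHAC1 and TRIB3 lie in annotated exons of the same genes, that of EIF2AK3 lies within the bounds of EIF2AK3 and in an exon of the divergent gene EIF2AK3-DT, that of DDIT3 lies within the bounds of DDIT3 and MBD6 but in no exon, and those of SESN2 and STC2 lie in no gene. The expression table draws some bounds differently: by its coordinates the site of STC2 lies within STC2, and those of DDIT3 and EIF2AK3 lie outside these genes. The 6 genes with a core include 4 of the 5 that were higher by at least 2-fold, and also DDIT3 (log2 fold change 0.76) and EIF2AK3 (-0.35), which were not higher by that rule. ATF4, CEBPB and EIF2AK4 held no core in these 1000 bases.

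The same core was counted for the genes of the other lists. In the promoter windows it was held by 12 of 26 amino acid targets, 5 of 20 stress targets, 3 of 10 bZIP factors, 2 of 15 paralogs, 1 of 4 phosphatase genes, 1 of 18 genes of the other unfolded protein response arms and none of the sensing, eIF2 or mTORC1 branch genes with a window, against 2.69% of expressed genes. The longer search leaves out the 50 bases after the start, so genes such as MARS1 and SLC3A2 held the core only in the promoter windows. Within the 1000 bases, against 12.3% of expressed genes, it was held by 11 of 26 amino acid targets with a window (42.3%) and by 7 of 20 stress targets (35.0%), by 3 of 10 bZIP factors, by 2 of 8 genes for eIF2, eIF2B and eIF5, by 2 of 4 phosphatase genes and by 2 of 15 paralogs, and by 2 of 18 genes of the other unfolded protein response arms, 0 of 7 sensing genes and 0 of 9 mTORC1, GATOR2 and eIF4F genes. Some genes stand in more than 1 list, such as JDP2 and CEBPG. The target lists hold known targets of ATF4 and CHOP, so their shares are not independent of that choice. Sites of 3 genes described above are shown for comparison with those of the 10 genes, as the classic example of the element (ASNS) and as bZIP factors that hold it (JDP2, log2 fold change 1.83, and CEBPG, 0.85, below 2-fold). The remaining bZIP factor with a core was ATF3, at 0.39 with an interval that includes 0.
ASNS, chr7:97872458-97872487, minus strand: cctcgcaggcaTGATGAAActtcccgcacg
JDP2, chr14:75427992-75428021, plus strand: tatatagccggggcTGATGCAAcccgtccc
CEBPG, chr19:33374060-33374089, plus strand: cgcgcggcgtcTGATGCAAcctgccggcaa
The core shown lay 68 bases before the start of ASNS, which held another, TGATGTAA, 886 bases before it. It lay 42 bases before that of CEBPG and 16 bases before the nearest start of JDP2. JDP2 and CEBPG had the same 8 bases as STC2. A match of these letters is a description of the sequence and does not show that a factor bound there.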

How the data were processed

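RNA-seq was performed on Molm13 cells with 1 Vector library and 1 library labelled OE-UNC5B. The deposited table gives whole, unnormalized read counts of each gene beside FPKM computed by the authors. Per the labels, bcl2fastq 2.19, HISAT2 2.0.4 and StringTie 1.3.0 were among the tools and GRCh38 was the build. How reads were counted (tool, annotation, strand) is not given in the sources used here. Count divided by FPKM differed 1.139 to 1.140-fold between libraries in the 18324 genes detected in each, as did the read totals (1.140), so FPKM scale to the counted reads.

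TMM factors from edgeR 4.0.16 in R 4.3.3 were 0.984 and 1.02, and 0.5 reads were added for log2 fold changes. Genes needed 10 reads over both libraries, which left medians of 270 and 316 reads per gene. Intervals (95%, scipy 1.17.1) are Clopper-Pearson for ratios and Poisson for levels. With 1 library per group, edgeR's quasi-likelihood test could not be fitted and no p-value is given.

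The members and lists were chosen with earlier results of these data known. Named genes are the 10 genes, UNC5B, the paralogs, listed pseudogenes and, of each list, up to 6 genes past 2-fold with at least 50 reads, by size of the change. Further genes were named outside this rule, for a role, an overlap or a marker or after their values were seen: FOS, HSPA5, XBP1, HERPUD1, EIF4E, PPP1R15A, GDF15, FGF21, PMAIP1, BBC3, TNFRSF10B, MARS1, MBD6, SLC3A2, DELE1, SPI1, MEIS1, ANPEP, CEBPB-AS1 and EIF2AK3-DT. Exons came from GENCODE 44 and promoters from RefSeq (GRCh38.p14). The alternatives tried were DESeq2 1.42.0 size factors, library totals, FPKM with 0.1 or 1 added, 2 reads added, other filters and folds, and intervals that exclude a fold of 1. The procedure was tested on simulated Poisson counts. These hold the counting error that the intervals assume and no variation between cultures, so the test cannot speak for the latter.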

Additional observations from a re-analysis of the deposited data

How the results depend on the processing

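No paired analysis was possible because each group was a single library, which also left no replicate to leave out. The log2 fold changes of the 10 genes kept their signs under library totals, DESeq2 size factors, FPKM with 0.1 or 1 added, 2 reads added, no filter and at least 50 reads. With FPKM and 1 added, CHAC1 was at 0.81 and STC2 at 2.47. The number of the 10 genes that were higher was 1 at 4-fold. Over all genes, FPKM with 0.1 added gave 392 higher and 281 lower genes, FPKM with 1 added 165 and 130, no filter 2886 and 3079, at least 50 reads 359 and 297, 1.5-fold 1989 and 1925, and 4-fold 154 and 177. At 4-fold the lists gave 0 higher machinery genes, 0 higher bZIP factors, 4 higher and 1 lower stress targets, 3 higher amino acid targets and 0 lower genes of the other unfolded protein response arms. At 1.5-fold they gave 2 higher and 1 lower bZIP factors, 30 higher amino acid targets, 8 lower genes of the other unfolded protein response arms, 1 higher mTORC1 branch gene, and 1 higher and 2 lower paralogs. These follow from the fold itself. With FPKM and 1 added, 0 machinery genes were higher. The lower stress targets numbered 1 with FPKM and 0.1 added, with FPKM and 1 added and with at least 50 reads, and without a filter 3 paralogs were lower. GDF15 lies below 50 reads, and TRIB2 and STC1 below 10. The FPKM settings also replaced the minimum of 10 reads by at least 1 FPKM in either library, so the genes counted changed too. GDF15, at 0.211 FPKM in Vector and 0.0370 FPKM in the library labelled OE-UNC5B, was left out by that minimum. How much of the other changes with FPKM came from the minimum or from the added value was not tested. The median of the stress targets was 0.57 with FPKM and 0.1 added, over those with at least 1 FPKM in either library. The extended search, added after the data were seen, found the core for 6 of the 9 genes with a window, against 1 in the promoter windows. Depth limits CHAC1 and DDIT3 most, which had the fewest reads of the 10 genes.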
